A study of Mus musculus with 36 samples.

Results

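Transcripts of 10 genes of the Notch pathway were followed through the differentiation of mouse brown pre-adipocytes, out of 55536 genes listed for each library. They were the Fringe enzymes Mfng, Lfng and Rfng, the receptors Notch1, Notch2, Notch3 and Notch4, the ligand Jag1, and the target genes Hes1 and Hey1. The genes were taken by name, and the choice was made knowing that Mfng rose from almost no counts at day 0 to a high count at day 6. The values of day 6 against day 0, and all changes of Mfng between days, are therefore given as a description and were not tested. Differences between clones or between genotypes in the changes over days were tested, except those of Mfng against day 0.

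Total RNA was sequenced from 36 libraries of 2 monoclonal lines, clones 48 and 66, in which both copies of Rxra, the gene of retinoid X receptor alpha, had been disrupted with CRISPR/Cas9. Each clone had been transduced with a retrovirus carrying mouse Rxra cDNA, as the wild-type form (Rxra WT) or with serine 22 replaced by alanine (Rxra SA), so that all libraries came from knockout cells with a re-expressed receptor and none from unmodified cells. Each clone and genotype was sampled at confluence (day 0) and at days 2 and 6 of differentiation, with 3 replicates, giving 12 libraries per day. All cells were grown in insulin and triiodothyronine, and dexamethasone, isobutylmethylxanthine and indomethacin were present up to day 2. The comparison of genotypes asked whether phosphorylation of serine 22 alters transcription during adipogenesis, and the comparison of days how transcription changes with differentiation.

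Total counts lay between 11351078 and 24349263 per library, with a median of 18338726. Rxra had at least 1851 counts in each library, and the median levels in the Rxra WT and Rxra SA libraries were 239 and 244 CPM, counts scaled to a common total. The counts do not separate the 2 forms of the cDNA, so they do not check the genotype labels. The summed level of 7 adipocyte markers, among them Adipoq and Plin1, was 126–232 CPM at day 0, 3914–6739 CPM at day 2 and 6722–10830 CPM at day 6. The 5 brown adipocyte markers examined summed to 10.7–17.9 CPM at day 0, 19.5–42.3 CPM at day 2 and 20.1–57.3 CPM at day 6. Of these, Ppargc1a went from a median of 13.6 CPM at day 0 to 22.9 CPM at day 6, Cox7a1 from 0.249 to 12.9 CPM, and Elovl3 had its highest median, 5.85 CPM, at day 2. Ucp1, the defining gene of brown adipocytes, had at most 5 counts in each library and Cidea at most 27. All libraries of clone 48 were in 1 library pool and all of clone 66 in another, so that clone and pool cannot be told apart. The replicates are called technical in one description and independent in another, and the p-values measure the spread between these libraries only.

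Notch receptors are membrane proteins that bind ligands of the Delta and Jagged families on neighbouring cells. Binding opens the receptor to cleavage by ADAM proteases and then by gamma-secretase, and the freed intracellular domain enters the nucleus, joins the DNA-binding protein RBPJ and turns on genes such as those of the Hes and Hey repressors. Fringe enzymes act in the Golgi, where they add N-acetylglucosamine to O-fucose on the receptors, and this sugar alters how strongly a receptor responds to Delta as compared with Jagged ligands. In adipose tissue, Notch signalling is known as a brake on the thermogenic programme of adipocytes.

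RefSeq promoter windows, each from 250 bases before to 50 bases after a transcript start (GRCm38.p6), were available for 7 of the 10 genes, all but Mfng, Hes1 and Hey1. The windows were searched on both strands for the RBPJ motif GTGGGAA, the nuclear receptor motif AGGTCA and the E-box CACGTG. These motifs were found in 6.38%, 16.3% and 7.15% of 32851 windows of the same length. Only the Lfng window held a match among the 7, with an E-box beginning at position -112 from the start and an RBPJ motif at -109. Both motifs share their bases GTG. The part of the Lfng window upstream of the annotated gene is shown because Lfng moved in opposite directions in the 2 intervals, and that of Jag1 because Jag1 had the largest increase of the tested members by day 2. Both are printed in the direction of transcription, and capitals mark the motif matches, of which the Jag1 stretch has none.

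Lfng, chr5:140607091-140607319, + strand: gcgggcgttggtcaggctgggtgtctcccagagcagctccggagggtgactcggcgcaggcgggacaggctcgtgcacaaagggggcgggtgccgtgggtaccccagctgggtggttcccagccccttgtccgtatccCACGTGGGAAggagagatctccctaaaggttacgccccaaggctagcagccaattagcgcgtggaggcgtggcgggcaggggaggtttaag

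Jag1, chr2:137116645-137116770, - strand: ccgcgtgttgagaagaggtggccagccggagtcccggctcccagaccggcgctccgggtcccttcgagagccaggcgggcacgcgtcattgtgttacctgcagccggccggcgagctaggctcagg

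A match describes the letters of the window only, and binding was not measured.

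Mfng (chr15:78755882-78773475, - strand) encodes Manic fringe. At day 0 it had 0 or 1 count in each of the 12 libraries, 3 counts in all. At day 2 it had 33 to 63 counts, with a median of 2.91 CPM (range 2.05–4.37). At day 6 it had 984 to 1343 counts in clone 48, with a median of 69.0 CPM (range 61.2–82.2), and 2386 to 3244 counts in clone 66, with a median of 142 CPM (range 135–155). The days did not overlap in either clone, and at day 6 each library of clone 66 lay above each library of clone 48. Pooled over libraries, the level at day 2 was 231 times that at day 0 (95% counting interval 78.7–1124), and the level at day 6 was 37.2 times that at day 2 (34.3–40.4). These intervals rest on summed counts and cover neither the spread between libraries nor that between clones. By clone, the fitted level at day 6 was 22.4 times that at day 2 in clone 48 and 51.5 times in clone 66. The libraries of the 4 cell lines (each clone with each form of Rxra) were also compared between days within 12 sets, each sharing cell line and replicate number. In these sets, day 6 was 18.5 to 63.3 times day 2, and higher in 12 of 12. In bulk RNA, a larger share of cells with a transcript and more transcript per cell cannot be told apart.

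Lfng (chr5:140607320-140615545, + strand), which encodes Lunatic fringe, fell and then rose. It had a median of 23.98 CPM at day 0 (range 17.8–30.2), 4.99 CPM at day 2 (4.46–6.21) and 74.0 CPM at day 6 (55.3–93.3), each over 12 libraries. No 2 days overlapped. Lfng decreased by 2.17 on the log2 scale from day 0 to day 2 (SE 0.09, adjusted p = 2.54e-21, edgeR quasi-likelihood test). It rose 14.2-fold from day 2 to day 6 (log2 change 3.83, SE 0.09, adjusted p = 4.96e-27). Each of the 12 sets moved in these directions.

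Rfng (chr11:120780746-120784207, - strand) encodes Radical fringe and changed least of the Fringe genes. Its median was 9.21 CPM at day 0 (range 4.65–17.1), 16.8 CPM at day 2 (8.06–27.0) and 13.9 CPM at day 6 (6.05–25.98), and all days overlapped. It rose from day 0 to day 2 over both clones (log2 change 0.76, SE 0.23, adjusted p = 0.0035), in 11 of 12 sets, but neither clone passed the threshold alone (adjusted p = 0.0527 in clone 48 and 0.0606 in clone 66, where 65.3% and 61.6% of all genes were called). From day 2 to day 6 its log2 change was -0.17 (SE 0.23, adjusted p = 0.526).

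**Figure D1:**
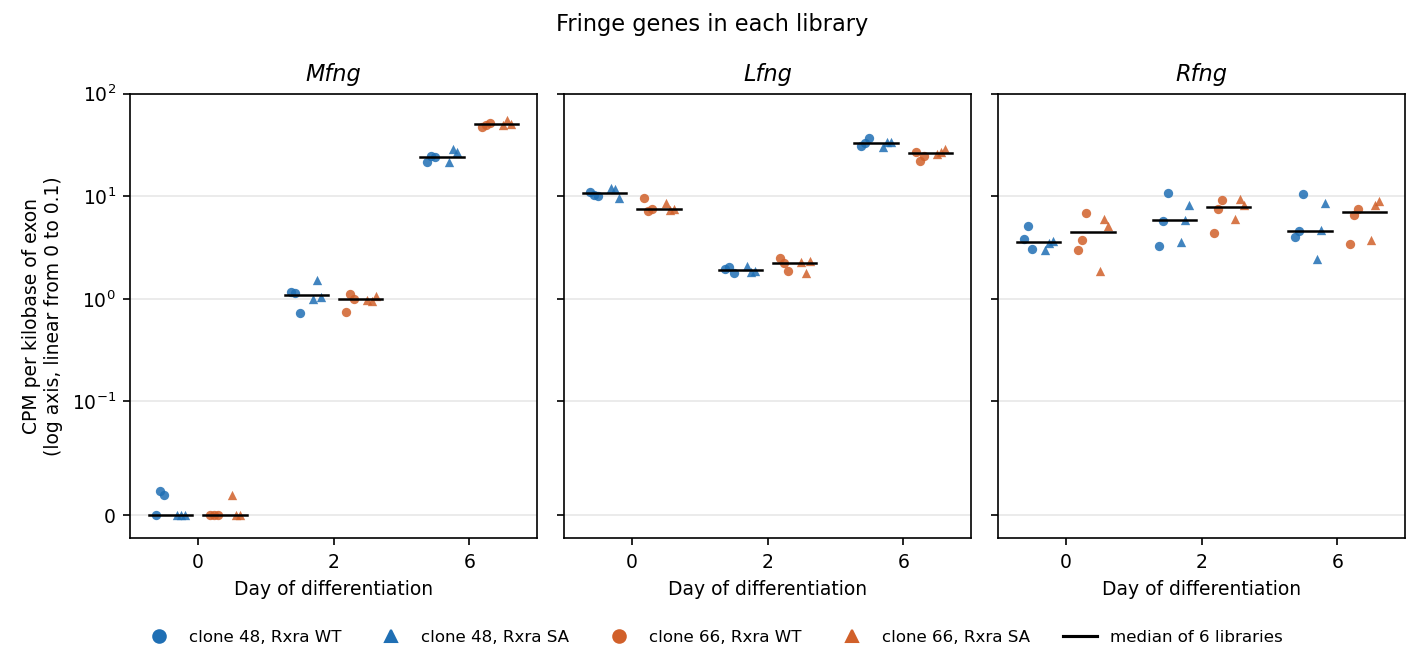
Levels of Mfng, Lfng and Rfng in each library, as CPM per kilobase of exon on a log axis that is linear from 0 to 0.1, by day, clone (colour) and genotype (symbol). Horizontal lines are medians of 6 libraries. Mfng lies at or next to 0 at day 0 and between 21.6 and 54.6 at day 6, Lfng dips at day 2, and Rfng overlaps between days.

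Since levels of different genes can be compared only per length, CPM was divided by exon length to give each Fringe gene's share of their summed level. At day 0, Lfng made up a median of 73.3% (range 52.0–82.0%), Rfng 26.7% and Mfng 0%. At day 2, Rfng made up 67.1% (range 51.0–81.2%), Lfng 20.1% and Mfng 10.1%. At day 6, Mfng made up 50.2% (range 33.5–63.1%), Lfng 41.7% and Rfng 7.84%. The most abundant Fringe transcript was thus a different gene at day 0 and at day 2. At day 6 it was Lfng in clone 48, with 52.6% (48.7–55.6%) against 39.2% for Mfng (33.5–43.2%), and Mfng in clone 66, with 61.3% (57.2–63.1%) against 31.4% for Lfng (28.6–34.6%). The Mfng to Lfng ratio per kilobase at day 6 was 0.646–0.866 in clone 48 and 1.76–2.21 in clone 66, so that the clones did not overlap. The summed Fringe level per kilobase was 13.2 before induction, 10.1 on the second day and 74.5 on the sixth (medians).

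**Figure D2:**
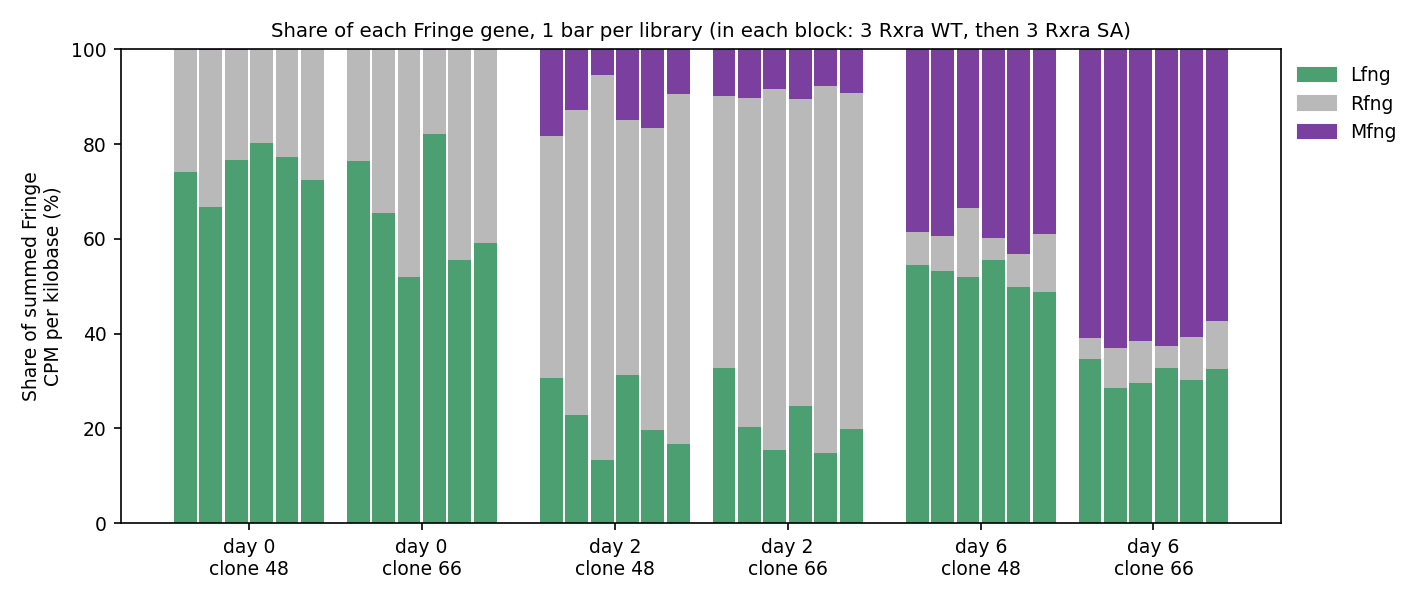
Share (%) of Lfng, Rfng and Mfng in the summed Fringe CPM per kilobase, with 1 stacked bar per library, grouped by day and clone. Lfng leads at day 0 and Rfng at day 2, and at day 6 Mfng takes 33.5–43.2% of the bars of clone 48 and 57.2–63.1% of those of clone 66.

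All 8 members tested between day 0 and day 2 were called at an adjusted p under 0.05, 4 higher and 4 lower, where 73.3% of all 16723 genes tested were called (35.8% higher and 37.5% lower). From day 2 to day 6, 5 of 8 were called, all higher, where 62% of all genes were called and 31.9% were called higher. A share of calls near that of all genes is no result about the members, so the values below are given for their size and direction. From day 0 to day 2, Lfng, Notch3 and Jag1 were the 3 of 8 without overlap between days, against 27.7% of all genes. From day 2 to day 6, Lfng and Hes1 were the 2 of 8, against 17.1%.

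Among the receptors, Notch1 rose in both intervals. Notch1 (chr2:26457903-26516663, - strand) had a median of 18.0 CPM at day 0 (range 12.8–26.9), 38.1 CPM at day 2 (23.6–60.7) and 64.8 CPM at day 6 (39.4–113). The ranges overlapped between neighbouring days, but each of the 12 sets was higher at day 2 than at day 0 and higher at day 6 than at day 2. The log2 change was 1.11 from day 0 to day 2 (SE 0.16, adjusted p = 2.32e-07) and 0.78 from day 2 to day 6 (SE 0.16, adjusted p = 7.42e-05). Antisense genes overlap 10.41% of its exon bases. Counting did not use the strand, and read pairs assigned to several genes were left out, so those bases add little to the count of Notch1.

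Notch2 (chr3:98013527-98150361, + strand) was the most abundant receptor per kilobase in each library. Its median was 130 CPM at day 0 (range 87.2–255), 81.7 CPM at day 2 (46.8–135) and 82.1 CPM at day 6 (41.0–170), with overlap between all days. It fell from day 0 to day 2 (log2 change -0.77, SE 0.18, adjusted p = 0.000206), in 11 of 12 sets. From day 2 to day 6 the log2 change was 0.19 (SE 0.17, adjusted p = 0.351). Another gene on the same strand overlaps 5.02% of its exon bases.

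Notch3 (chr17:32120820-32166852, - strand), a receptor best known from mural cells of blood vessels, fell and then rose. Its median was 16.3 CPM at day 0 (range 11.6–23.6), 4.75 CPM at day 2 (2.40–8.80) and 12.6 CPM at day 6 (5.83–23.4). Day 0 lay above day 2 without overlap, and each of the 12 sets fell and then rose. The log2 change was -1.77 from day 0 to day 2 (SE 0.21, adjusted p = 3.44e-09) and 1.41 from day 2 to day 6 (SE 0.21, adjusted p = 4.45e-07). An antisense gene overlaps 6.03% of its exon bases. The 5 mural markers examined summed to 119–409 CPM at day 0, 24.4–75.5 CPM at day 2 and 57.5–226 CPM at day 6. Of these, 4 passed the filter on low counts. By day 2, 1 was called higher and 3 lower, where 35.8% and 37.5% of all genes were. All 4 were called higher from day 2 to day 6, where 31.9% of all genes were. Most of the sum at day 0 was Pdgfrb, which pre-adipocytes express too. Its medians at days 0, 2 and 6 were 170.5, 41.1 and 63.05 CPM, and those of Cspg4 10.5, 6.70 and 8.66 CPM. Myh11 (1.34, 2.34 and 21.7 CPM) and Des (2.47, 0.709 and 20.6 CPM) ended above day 0. Rgs5 had at most 22 counts in any library. The part of these markers in the change of Notch3 was not tested.

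Notch4 (chr17:34564268-34588503, + strand), known mainly from endothelium, had the lowest median of the receptors at each day, with 23 to 100 counts per library. In clone 48 Rxra SA at day 2, Notch3 lay below it in replicates 1 (38 against 40 counts) and 2 (41 against 53). The median of Notch4 was 3.19 CPM at day 0, 2.47 CPM at day 2 and 4.50 CPM at day 6. It rose from day 2 to day 6 in 12 of 12 sets (log2 change 0.74, SE 0.12, adjusted p = 1.21e-06). The fall from day 0 to day 2 was small (log2 change -0.35, SE 0.12, adjusted p = 0.00797) and was seen in 9 of 12 sets. It was called in clone 66 (log2 change -0.58, SE 0.15, adjusted p = 0.00149), which was lower in 6 of 6 sets, and not in clone 48 (log2 change -0.15, SE 0.15, adjusted p = 0.396), which was lower in 3 of 6. The difference of these changes between clones was -0.43 (SE 0.21, adjusted p = 0.282). Over both clones it was no longer called with replicate 2 of clone 66 left out (log2 change -0.24, adjusted p = 0.0736) or with no filter on low counts (log2 change -0.31, adjusted p = 0.0572). The endothelial markers Cdh5 and Kdr had at most 1 count in each library, and the 7 endothelial markers summed to at most 2.43 CPM.

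Per kilobase, Notch2 made up a median of 75.9% of the summed receptor level at day 0, 66.5% at day 2 and 53.7% at day 6 (ranges 69.4–84.2%, 56.5–70.7% and 47.2–59.9%). Notch1 made up 8.56%, 25.1% and 31.8%, with no overlap between day 0 (5.13–10.4%) and day 2 (21.9–32.1%). Notch3 made up 12.8%, 5.10% and 10.2%, and Notch4 2.62%, 2.66% and 3.27%. Notch2 therefore had the largest share at each day, and Notch1 took the second largest from day 2 on. In clone 48 at day 6 the share of Notch2 was 47.2–53.6%, so it was not a majority in each library. Exon length counts all annotated exons of a gene (14232 bases for Notch1), and which of them were used was not examined. In CPM per kilobase, the receptors summed to a median of 15.6 (day 0), 11.02 (day 2) and 14.0 (day 6), with overlap between all days.

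Jag1 (chr2:137081456-137116644, - strand), a ligand of the Jagged family, was low at day 0 and had its large increase before day 2. In clone 48 its median was 0.773 CPM at day 0 (range 0.516–0.988), 23.3 CPM at day 2 (20.8–26.7) and 30.8 CPM at day 6 (20.4–46.5). In clone 66 its median was 2.77 CPM at day 0 (1.90–5.92), 60.4 CPM at day 2 (53.2–76.5) and 73.1 CPM at day 6 (37.1–85.7). In both clones day 0 lay far below the later days, and days 2 and 6 overlapped. Jag1 rose 22.7-fold from day 0 to day 2 (log2 change 4.50, SE 0.20, adjusted p = 1.61e-20), in 12 of 12 sets. From day 2 to day 6 its log2 change was 0.29 (SE 0.16, adjusted p = 0.123), and it passed the threshold when replicate 1 of clone 66 was left out (log2 change 0.40, adjusted p = 0.0254).

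Of the target genes, Hes1 (chr16:30064384-30067796, + strand), a transcriptional repressor that Notch induces in many cells, rose in both intervals. Its median was 3.17 CPM at day 0 (range 1.501–5.80), 6.27 CPM at day 2 (3.91–8.20) and 12.4 CPM at day 6 (11.3–13.5). Day 6 lay above both earlier days without overlap. The log2 change was 0.93 from day 0 to day 2 (SE 0.17, adjusted p = 5.98e-06) and 1.03 from day 2 to day 6 (SE 0.16, adjusted p = 6.93e-07). Hey1 (chr3:8663359-8667256, - strand), another repressor of this group, had 0 to 12 counts per library and was the 1 member of 10 that did not pass the filter on low counts. Its median was 0.227 CPM at day 0, 0.112 CPM at day 2 and 0.435 CPM at day 6, with overlap between all days, and it was not tested. In clone 66 Hey1 was lower at day 2 than at day 0 in 6 of 6 sets and higher at day 6 than at day 2 in 6 of 6. In clone 48 it was lower at day 2 in 2 of 6 and higher at day 6 in 4 of 6.

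**Figure D3:**
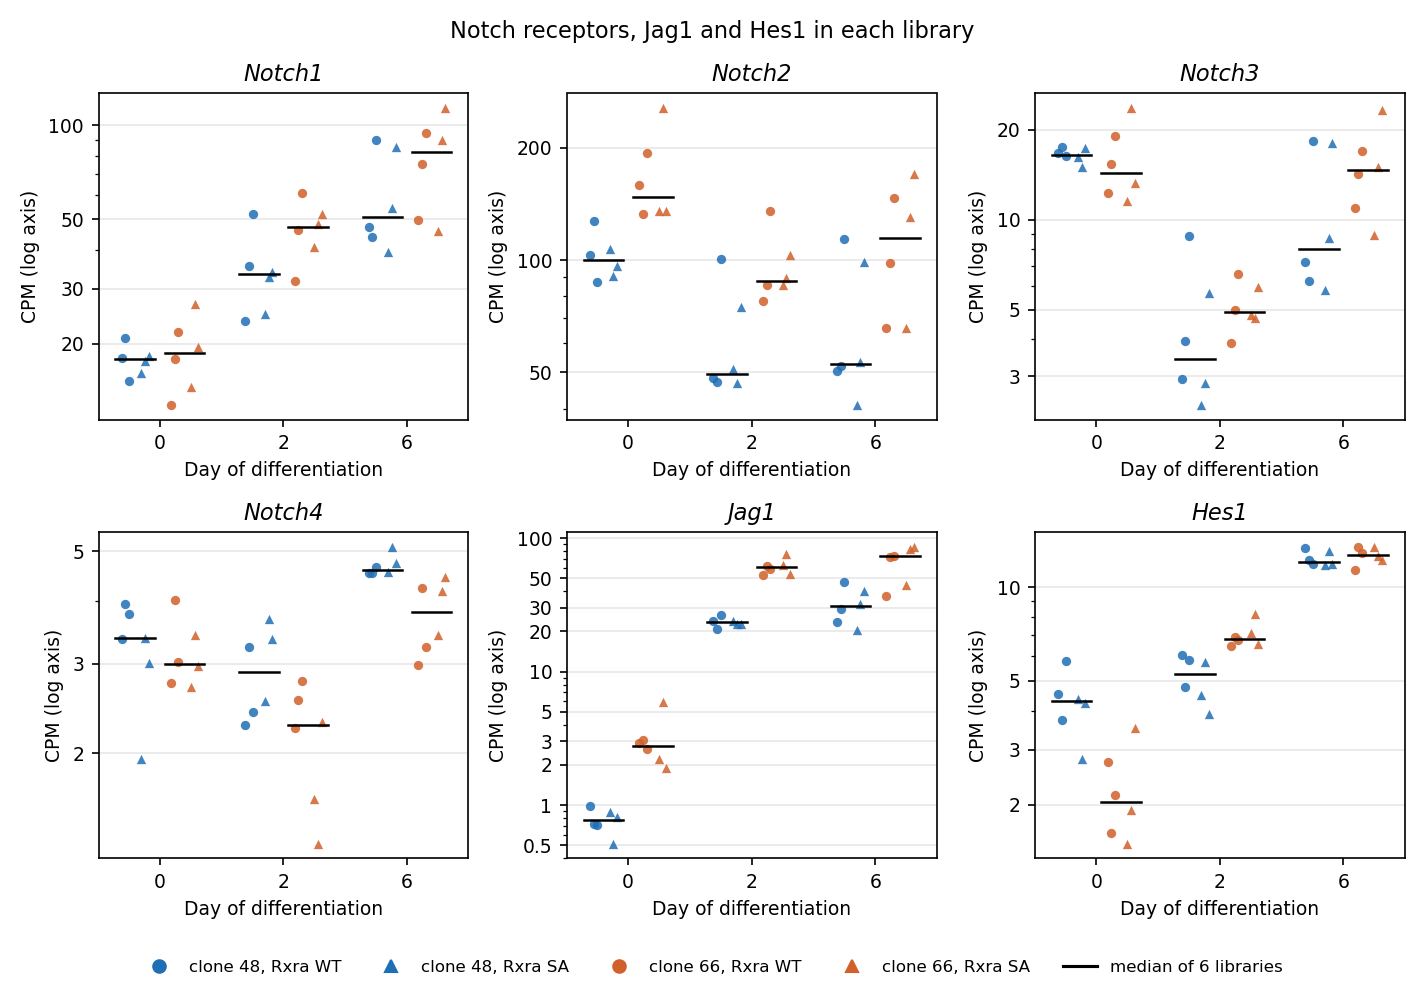
CPM of the 4 Notch receptors, Jag1 and Hes1 in each library, on log axes that differ between panels, by day, clone (colour) and genotype (symbol). Horizontal lines are medians of 6 libraries. Jag1 moves up between days 0 and 2, Notch3 dips at day 2, and Hes1 at day 6 lies at 11.3–13.5 CPM in both clones.

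Against day 0, and as a description only, the log2 change at day 6 was 4.79 for Jag1, 1.97 for Hes1, 1.90 for Notch1, 1.66 for Lfng, 0.59 for Rfng, 0.39 for Notch4, -0.35 for Notch3 and -0.58 for Notch2, in a comparison in which 68.3% of all genes were called. Days 0 and 6 did not overlap for Jag1, Hes1, Notch1, Lfng and Mfng, and for 23.2% of all genes. For Mfng the pooled level was 8595 times that of day 0, with a counting interval of 2941–41680 that rests on 3 counts and leaves out the spread between libraries. The summed adipocyte markers had medians of 170 CPM at day 0, 5067 CPM at day 2 and 8271 CPM at day 6, and days 2 and 6 overlapped. From day 2 to day 6, 4 of these 7 were called higher, 2 lower (Cebpa and Lipe) and 1 was not called. Of all genes, 31.9% were called higher and 30.1% lower in that interval. The part of these markers in the changes of the members was not tested.

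The order of median levels per kilobase changed between days. At day 0 it was Notch2 (12.05), Lfng (9.57), Rfng (3.70), Notch3 (2.02), Hes1 (1.56), Notch1 (1.26), Notch4 (0.396), Jag1 (0.248), Hey1 (0.0697) and Mfng (0). Neighbours in this order overlapped except Lfng with Rfng and Notch1 with Notch4. At day 2 the order was Notch2 (7.57), Jag1 (6.86), Rfng (6.76), Hes1 (3.08), Notch1 (2.68), Lfng (1.99), Mfng (1.03), Notch3 (0.587), Notch4 (0.307) and Hey1 (0.0343), with gaps only between Lfng and Mfng and between Notch4 and Hey1. At day 6 it was Mfng (38.2), Lfng (29.6), Notch2 (7.61), Jag1 (7.26), Hes1 (6.10), Rfng (5.58), Notch1 (4.55), Notch3 (1.56), Notch4 (0.558) and Hey1 (0.133), with gaps between Lfng and Notch2, Notch3 and Notch4, and Notch4 and Hey1. Over all 12 libraries the median of Mfng was last at day 0 and first at day 6. At day 6, Lfng had the higher level per kilobase in each library of clone 48 (medians 33.3 against 24.3 for Mfng), and Mfng in each library of clone 66 (50.1 against 26.3 for Lfng).

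Rxra SA did not differ detectably from Rxra WT in any member. With edgeR, 0 of 8 members at day 0 and 0 of 9 at days 2 and 6 were called, where 0% of all genes were called at each day (139, 162 and 125 genes, and 0 members, had an unadjusted p under 0.05), and DESeq2 called 0 genes as well. The log2 change of Rxra SA against Rxra WT lay between -0.23 (Notch4) and 0.12 (Jag1) at day 0, between -0.25 (Notch3) and 0.17 (Mfng) at day 2, and between -0.01 (Rfng) and 0.13 (Notch4) at day 6, each with an adjusted p of 1. Notch4 at day 0 was lower in Rxra SA in 6 of 6 pairs of the same clone and replicate number (SE 0.16). Mfng at day 6 ranged over 61.2–146 CPM with the wild-type receptor and 61.4–155 CPM with Rxra SA, with a log2 change of 0.10 (SE 0.19). The SE of the members ranged from 0.115 to 0.325 (Rfng at day 0), and from 0.0647 to 0.185 (Jag1 at day 0) with the replicate number within each clone and day as a block, where 0 members were called as well. The change between days did not differ detectably between genotypes in any member (0 called in each interval, and 0 with an unadjusted p under 0.05).

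The clones differed in several members. At day 0, 4 of 8 members were called between clone 66 and clone 48, where 23.7% of all genes were. At day 2, 3 of 9 were called, where 30% of all genes were, so this count is near that of all genes and no result about the members. At day 6, 4 of 9 were called, where 26.2% of all genes were.

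Jag1 was higher in clone 66 at each day, by 1.99 on the log2 scale at day 0 (SE 0.30, adjusted p = 6.34e-06), 1.38 at day 2 (SE 0.22, adjusted p = 1.7e-05) and 1.04 at day 6 (SE 0.22, adjusted p = 0.000653). The clones did not overlap in Jag1 at days 0 and 2. Mfng was higher in clone 66 at day 6 (log2 difference 1.03, SE 0.13, adjusted p = 9.1e-07), while its log2 difference at day 2 was -0.17 (SE 0.15, adjusted p = 0.452). Its change from day 2 to day 6 was larger in clone 66, with a log2 difference of 1.202 between clones (SE 0.20, adjusted p = 0.000284), where 6.18% of all genes differed between clones in that interval.

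Lfng went the other way. It was lower in clone 66 at day 0 (log2 difference -0.44, SE 0.09, adjusted p = 0.000637) and at day 6 (-0.35, SE 0.09, adjusted p = 0.00424), the latter not called without the filter on low counts (adjusted p = 0.0905). It fell less in clone 66 by day 2 (log2 change -1.88 against -2.48) and rose less after it (3.58 against 4.10). The difference of the falls was 0.61 (SE 0.14, adjusted p = 0.00474), and was not called without replicate 2 of clone 48 (adjusted p = 0.0551) or without the filter (0.0715). The difference of the rises was -0.52 (SE 0.14, adjusted p = 0.0177), and was not called without the filter (adjusted p = 0.202), without replicate 2 (0.116) or 3 (0.107) of clone 48, or without replicate 1 of clone 66 (0.0624).

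Hes1 was lower in clone 66 than in clone 48 at day 0, where the medians were 2.04 and 4.31 CPM (log2 difference -0.91, SE 0.17, adjusted p = 0.000115). At day 2 it was higher in clone 66, with 6.49–8.20 CPM against 3.91–6.05 CPM (log2 difference 0.45, SE 0.16, adjusted p = 0.0289), although this call was lost without replicate 1 (adjusted p = 0.0748) or 3 (0.0813) of clone 48, without replicate 2 of clone 66 (0.126), and without the filter on low counts (0.063). At day 6 the clones had 11.3–13.5 CPM and 11.8–13.4 CPM (log2 difference 0.04, SE 0.15, adjusted p = 0.898). Hes1 thus changed by 1.64 on the log2 scale from day 0 to day 2 in clone 66 (SE 0.16, adjusted p = 7.11e-10) and by 0.27 in clone 48 (SE 0.16, adjusted p = 0.138). The difference between clones was 1.36 (SE 0.23, adjusted p = 0.000192), where 6.84% of all genes differed in that interval. Over days 0 to 6 the difference was 0.94 (SE 0.22, adjusted p = 0.0113), where 3.85% of all genes differed, and it was not called without replicate 1 (adjusted p = 0.0895) or 3 (0.0903) of clone 48 or without replicate 2 of clone 66 (0.126).

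**Figure D4:**
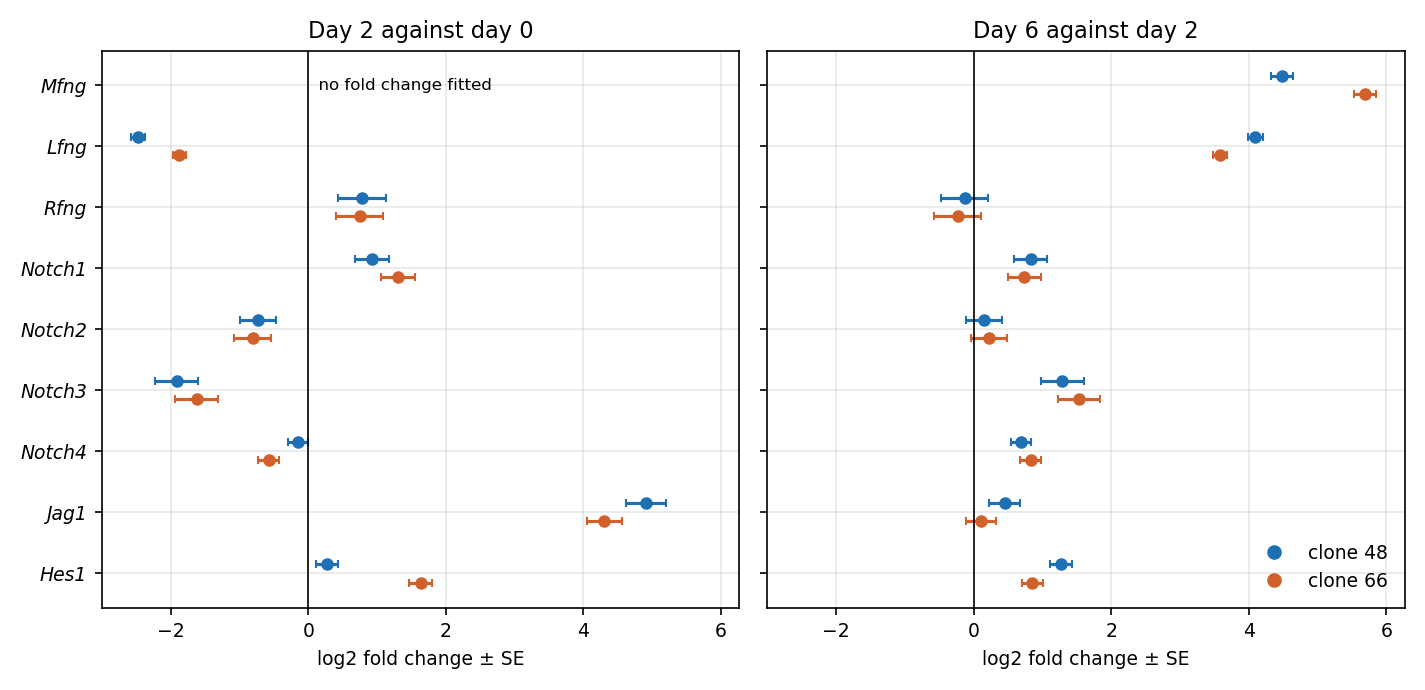
Log2 fold change with its SE for 9 members in clone 48 and clone 66, from day 0 to day 2 (left) and from day 2 to day 6 (right). Mfng has no fitted value against day 0, and its day 6 values are a description. The difference between clones was called for Hes1 and Lfng on the left and for Mfng and Lfng on the right. The SE bars of the clones are also apart for Jag1 and Notch4 on the left and Hes1 on the right, where the difference was not called.

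Calls of receptors between clones changed when a replicate was left out, which also leaves the clones with unequal replicate numbers. With libraries matched by genotype and replicate number, Notch2 was higher in clone 66 in 6 of 6 pairs at each day and Notch1 in 6 of 6 at days 2 and 6, while Notch4 was lower in 5 of 6 at day 2 and in 6 of 6 at day 6. Notch2 was called higher in clone 66 at day 0 (log2 difference 0.72, SE 0.27, adjusted p = 0.0467) and at day 6 (0.72, SE 0.27, adjusted p = 0.0439). With a replicate left out, the day 0 call was lost for each replicate except replicate 1 of clone 66 (adjusted p up to 0.237, without replicate 2 of clone 66). The day 6 call was lost without replicate 1 (0.276) or 2 (0.241) of clone 48 and without replicate 2 (0.131) or 3 (0.359) of clone 66. At day 2 the adjusted p of Notch2 was 0.0661, and it was 0.00354 without replicate 3 of clone 48. Notch4 was called lower in clone 66 at day 2 (-0.46, SE 0.15, adjusted p = 0.0237), a call that was lost without replicate 2 (0.213) or 3 (0.0788) of clone 48 and without replicate 1 (0.1) or 2 (0.112) of clone 66. Notch1 and Notch3 were not called between clones, but without replicate 3 of clone 48 both were called higher in clone 66 at day 2 (adjusted p = 0.0354 and 0.0258) and day 6 (0.0227 and 0.00172). Without replicate 1 of clone 66, Notch1 was called at day 2 (0.0343) and day 6 (0.0321), and Notch2 at day 2 (0.0433). Other processing changed some calls too. Notch2 was not called at day 0 with RLE size factors (0.0508) or when genes had to reach 1 CPM in 6 libraries (0.0517), nor at day 6 with library size alone (0.0575), and it was called at day 2 with no filter on low counts (0.0125) or with DESeq2 (0.0476). Notch4 was not called at day 2 with no filter (0.167), and was called lower at day 6 with library size alone (0.0478).

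Rfng, Notch1, Notch2 and Notch3 moved with the replicate number. In the 12 combinations of clone, genotype and day, the library of replicate 3 was the highest of the 3 in 9 for Rfng, 10 for Notch1, 9 for Notch2 and 10 for Notch3. The library of replicate 1 was the lowest in 11, 10, 7 and 8 of them. The median ratio of replicate 3 to replicate 1 was 2.29 for Rfng, 1.80 for Notch1, 1.61 for Notch2 and 1.63 for Notch3. For Lfng it was 0.911 and for Hes1 0.967, and replicate 3 was highest in 4 and 2 combinations. Notch4 moved with the number too, by less. Its library of replicate 1 was the lowest in 11 combinations, and that of replicate 2 the highest in 8. The ratio of replicate 3 to replicate 1 for Notch4 had a median of 1.11 (range 1.02–1.55). The labels do not say what a replicate number stands for. A fit with the number as a block within each clone was made for the day and genotype comparisons and for the clone differences between days, and it changed 0 of 118 calls there.

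**Figure D5:**
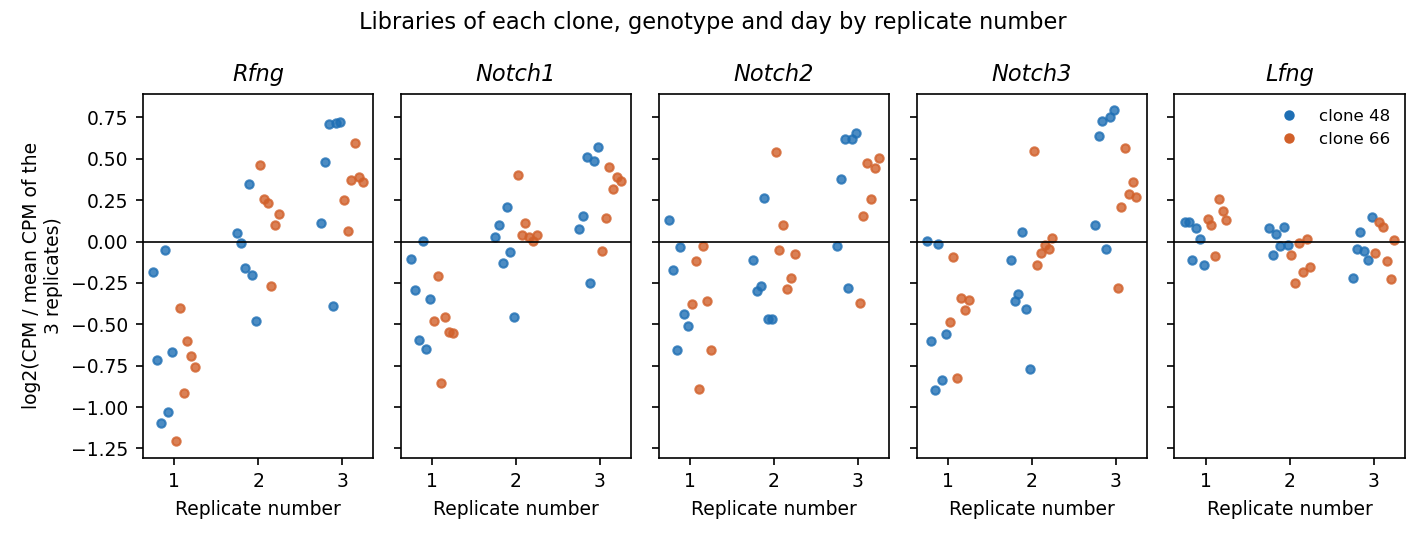
Each point is 1 library, plotted as log2 of its CPM over the mean CPM of the 3 replicates of the same clone, genotype and day, against the replicate number. Replicate 1 lies mostly below and replicate 3 mostly above 0 for Rfng, Notch1, Notch2 and Notch3, and all replicates lie near 0 for Lfng.

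A list of 56 further genes of the pathway was examined, of which 42 passed the filter on low counts. From day 0 to day 2, 10 were called higher and 24 lower (35.8% and 37.5% of all genes were), with a median log2 change of -0.31 against -0.015 over all genes tested. From day 2 to day 6, 17 were called higher and 11 lower (31.9% and 30.1% of all genes were), with a median of 0.017 against 0.012. These shares of all genes are the background for the counts of each group below. The lower counts by day 2 include Dll1 and Dlk2, which had medians near 0 CPM at that day. The 17 called higher from day 2 to day 6 also include Dll1, and these calls of Dll1 and Dlk2 are not read as results. Between genotypes each of the 42 had an adjusted p of 1 at each day (edgeR).

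Among the 7 other ligands of this list, Dll3, Dll4, Dlk1 and Dner had at most 6 counts in any library and did not pass the filter. Dll1, a Delta ligand, passed it with at most 19 counts, Jag2, the other Jagged ligand, with at most 49, and Dlk2 with at most 59. Jag1 reached the highest count of the ligands examined, 1921, but at day 0 in clone 48 it had only 0.0885–0.170 CPM per kilobase. Over all 12 libraries at day 0, the median per kilobase of Jag2 (0.133) lay inside that range and that of Dlk2 (0.488) above it. Dlk2, a non-canonical ligand, had medians of 0 CPM at day 2 and 0.0561 CPM at day 6. Dll1 had a median of 0.367 CPM at day 0, 0.0626 CPM at day 2 and 0.472 CPM at day 6. At these counts neither gene is given a test.

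All 7 other sugar transferases that act on Notch passed the filter. Gxylt2, a xylosyltransferase, fell from 67.3 to 2.20 CPM by day 2 (medians, log2 change -4.67, SE 0.20, adjusted p = 5.96e-21). Pofut1, which adds the O-fucose that Fringe enzymes extend, stayed at a median of 69.1 CPM at day 0 and 72.4 CPM at day 2 (adjusted p = 0.0717) and fell to 57.2 CPM at day 6 (log2 change -0.43, SE 0.06, adjusted p = 2.31e-08). In the second interval 6 of these 7 were called lower, where 30.1% of all genes were. Gxylt1 had the largest fall (log2 change -0.74, SE 0.14, adjusted p = 1.95e-05, edgeR).

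Of 10 proteases and gamma-secretase subunits, 3 were called higher and 5 lower by day 2, where 35.8% and 37.5% of all genes were. Psen2, a catalytic subunit of gamma-secretase, rose from a median of 17.6 to 70.9 CPM (log2 change 1.95, SE 0.07, adjusted p = 2.11e-23). Of 10 genes of the nuclear complex, 9 passed the filter, and 2 were called higher and 5 lower by day 2, against the same shares. Rbpj, the DNA-binding partner of the receptors, fell from 50.5 to 26.6 CPM (log2 change -0.83, SE 0.11, adjusted p = 3.79e-08). Kat2a, an acetyltransferase, rose from a median of 18.4 to 34.9 CPM by day 2 (log2 change 0.85, SE 0.21, adjusted p = 0.000479) and fell to 21.4 CPM by day 6 (log2 change -0.73, SE 0.21, adjusted p = 0.00261).

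Of 14 genes that act in turnover and trafficking of receptors and ligands, 12 passed the filter. By day 2, 5 were called higher and 7 lower, where 35.8% and 37.5% of all genes were. Numb, which opposes Notch by endocytosis, rose by day 2 (log2 change 0.89, SE 0.08, adjusted p = 3.74e-12) and then fell (-0.54, SE 0.08, adjusted p = 3.11e-07, edgeR). Numbl, in the same group, went the other way. It fell by day 2 (log2 change -2.22, SE 0.135, adjusted p = 1.61e-16) and then rose (1.15, SE 0.13, adjusted p = 2.37e-09, edgeR). Dtx4, an E3 ubiquitin ligase of the Deltex family, had the largest rise of the list from day 2 to day 6, from 3.61 to 66.8 CPM (log2 change 4.09, SE 0.21, adjusted p = 2.84e-18). The last 8 genes of the list were Nrarp and other members of the Hes and Hey families, and whether Notch induces each of them was not examined. Hes2, Hes3, Hes5, Hes7, Hey2, Heyl and Nrarp had at most 5 counts in any library, and only Hes6 passed the filter.

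Genes whose levels ran most alike with Mfng and Hes1 were found by Pearson's r over the 12 means of clone, genotype and day, among 6109 genes of sufficient level. For Mfng they were Slc25a1, the mitochondrial citrate carrier (r = 0.997), Acaa1a, a peroxisomal thiolase (0.997), Arhgap29 (0.994), Gys1, a glycogen synthase (0.993), and Xbp1, a transcription factor of the unfolded protein response (0.993). Slc25a1 had a median of 101 CPM at day 0, 216 CPM at day 2 and 550 CPM at day 6, so that it was already well expressed where Mfng was near 0. For Hes1 they were Ccng2 (0.984), Fam8a1 (0.976), Clec2d (0.974), Auh (0.965) and Tmem259 (0.964). These values describe 12 means that share days and libraries, and many genes changed with the day.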

How the data were processed

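RNA was sequenced with a stranded total RNA kit. Per the file headers and the paper's methods, the authors aligned reads with STAR 2.7.0d to mm10 and counted read pairs on exons of GENCODE M21 genes with featureCounts 1.6.2, without the strand option, and deposited the counts per gene without normalization. Pairs assigned to several genes or places were left out.

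Groups came from the sample labels. Counts were filtered with filterByExpr and scaled by TMM, which left 16723 of 55536 genes, and tested with edgeR 4.0.16 (quasi-likelihood, earlier form, coefficients for each genotype and day plus the clone, or for each clone, genotype and day). Genes with a Benjamini-Hochberg adjusted p under 0.05 over all genes tested were called. CPM used the TMM-scaled totals. The fits recovered changes set in simulated counts. Those counts held no effect of clone or replicate number, so the fits were not checked under such effects. No replicate pair was a duplicate (chi-square per degree of freedom 12 to 188). The Rxra WT and Rxra SA libraries that shared a clone, a day and a number deviated together in all 18 pairs (correlation 0.176–0.93), so the numbers were taken as pairs. The members and lists were chosen with earlier results of these data known. All members were named, and of the other pathway genes the 2 largest rises and falls of each interval among those called, plus genes near 0. Psen2 and Numb were the rises of the first interval, and Pofut1, Rbpj and Numbl were added after their values were seen. Library depth limits genes with few counts, whose counts are given.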

Additional observations from a re-analysis of the deposited data

Results flagged for a closer look

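In each genotype and day, the 6 libraries of each member were examined for 1 library far from the other 5, which chance gives in about 1 of 20 groups. Of 60 groups, 5 had one. Mfng was 0.05 CPM (1 count) in replicate 1 of clone 66 Rxra SA at day 0, where the other 5 libraries had 0. Mfng was 4.37 CPM in replicate 2 of clone 48 Rxra SA at day 2, where the others had 2.71 to 3.03. Notch2 was 255 CPM in replicate 2 of clone 66 Rxra SA at day 0, where the others had 90.7 to 136, and Jag1 in the same library was 5.92 CPM, where the others had 0.516 to 2.20. Hey1 was 0.276 CPM (5 counts) in replicate 3 of clone 48 Rxra SA at day 2, where the others had 0.0513 to 0.115.

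The change between days differed between clones, on the log2 scale and as clone 66 minus clone 48, by 1.202 for Mfng from day 2 to day 6 (adjusted p = 0.000284), by 0.61 for Lfng from day 0 to day 2 (adjusted p = 0.00474), by -0.52 for Lfng from day 2 to day 6 (adjusted p = 0.0177), by 1.36 for Hes1 from day 0 to day 2 (adjusted p = 0.000192) and by 0.94 for Hes1 from day 0 to day 6 (adjusted p = 0.0113), all from edgeR.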

How the results depend on the processing

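Of 1678 member values under 16 alternatives, 1627 kept their direction and side of the threshold, 34 lost a call, 17 gained one and 0 called values reversed. Of 1255 values that were not called, 100 changed sign. The replicate number as a block within clones changed 0 of 118 calls. With scaling by library size alone, the median log2 change of all genes from day 0 to day 2 was -0.27, against -0.015 in the main fit. From day 0 to day 6 it was -0.22, against -0.034. This scaling changed 2 of 118 calls. With no filter on low counts, 1 member was called for the difference between clones in the change from day 0 to day 2, and 1 from day 2 to day 6, in place of 2 each. With replicates left out, these counts lay between 1 and 2 in both intervals, between 0 and 1 from day 0 to day 6, and between 1 and 4 for clone 66 against clone 48 at day 2. Without division by length, Mfng made up 64.0% of the Fringe counts of clone 66 at day 6, and Notch2 47.0% and 53.4% of the receptor counts of clones 48 and 66. A block for the replicate number shared by both clones within each day, chosen after seeing the data, called 4, 5 and 7 members between clones at days 0, 2 and 6 in place of 4, 3 and 4. The added calls were Notch1 and Notch2 at day 2 (adjusted p = 0.00204 and 0.0003) and Notch1, Notch3 and Notch4 at day 6 (0.0124, 0.00761 and 0.0157), with edgeR. Same-numbered libraries of the 2 clones deviated together with a correlation over 0.1 in 16 of 18 pairs (median 0.658, range -0.353 to 0.905). Most of these pairs thus shared a deviation, but not all. The main fits did not take the numbers as pairs across clones, while this block and the counts of matched pairs between clones did.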
